A study of Homo sapiens with 18 samples.

Results

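The D-type cyclins CCND1, CCND2 and CCND3, their kinases CDK4 and CDK6, the kinase inhibitors CDKN2A, CDKN2B, CDKN1B and CDKN1C and the retinoblastoma gene RB1 were followed in PNT1A prostate cells. They are 10 of the 22392 genes measured on the arrays. Each is a named gene of the G1 phase, the part of the cell cycle before DNA synthesis, and each had exactly 1 row with a single gene symbol in the array annotation, so no choice between rows was needed. RNA was hybridised to 18 Affymetrix arrays, 3 for each of 6 groups. The control cells were not exposed to radiation and were kept in buffer-filled flasks at room temperature. Axis cells lay in the prostate position of a human-shaped phantom and received a total of 70 Gy in fractions of 10 Gy. The fractions were given consecutively, without a break, in a single session. The intestine, lung, thyroid and brain groups lay 15 cm, 35 cm, 52 cm and 74 cm from the axial plane in the same phantom. All 6 groups are cultures of 1 immortalised line, replated after the exposure and cultured for 24 h before the RNA was taken.

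D-type cyclins bind CDK4 or CDK6, and the active kinases phosphorylate the RB1 protein. Unphosphorylated RB1 holds E2F transcription factors in check, and its phosphorylation releases them to switch on genes for DNA synthesis. The INK4 proteins of CDKN2A (p16) and CDKN2B (p15) block CDK4 and CDK6, while the CIP/KIP proteins of CDKN1B (p27) and CDKN1C (p57) bind cyclin and kinase together and mainly inhibit CDK2 complexes. PNT1A, derived from normal prostate epithelium, carries SV40 sequences. The large T antigen of that virus binds the RB1 protein and its relatives, and it also binds p53. Messenger RNA does not show that binding.

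The values are log2 intensities, so a difference of 1 is a doubling, and levels of different genes were not set against each other because their probe sets differ. The arrays were alike, with medians over all genes between 4.07 and 4.22 and a lowest correlation of 0.992 between arrays of a group. Of the epithelial keratins, KRT18 read 6.80 to 6.89 and KRT8 5.67 to 6.27 in the control arrays. KRT5, KRT7, KRT15 and KRT19 lay between 4.53 and 6.43, and KRT14 at 3.40 to 3.76. EPCAM, also epithelial, lay at 4.90 to 5.30. CDH1 (3.92 to 4.19) and the secretory marker KLK3 (3.83 to 4.12) lay near the median of all genes of 4.16. COL1A1, a collagen gene typical of fibroblasts, lay at 8.63 to 8.80 in controls. Of the other fibroblast and smooth muscle genes, PDGFRB read 6.69 to 6.84, ACTA2 5.85 to 6.25 and DES 4.15 to 4.34. COL1A2, DCN and LUM lay between 2.49 and 3.64. The markers of cell types were thus mixed. A gene was called when limma's Benjamini-Hochberg adjusted p over all genes was under 0.05 and the fold change was above 1.5. In the text, rose and fell are used of genes whose adjusted p was under 0.05, with the fold change given beside them.

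In the axis, 4 members fell (CDK4, CDK6, CDKN2A and CDKN1B) and 2 rose (RB1 and CCND1), and CDKN1B alone also passed the fold change. By the full rule, 1 of the 10 members was called, against 7% of all genes in either direction and 2.6% called lower. By adjusted p alone, 2 members were higher, where 11.2% of all genes were, and 4 were lower, where 9.18% were. At an unadjusted p under 0.05 the number of members was also 6, where 28.7% of all genes passed. The median log2 fold change of the members was 0.10 and that of all genes 0.007, while the median size of the change, whatever its sign, was 0.34 for the members and 0.12 for all genes.

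**Figure D1:**
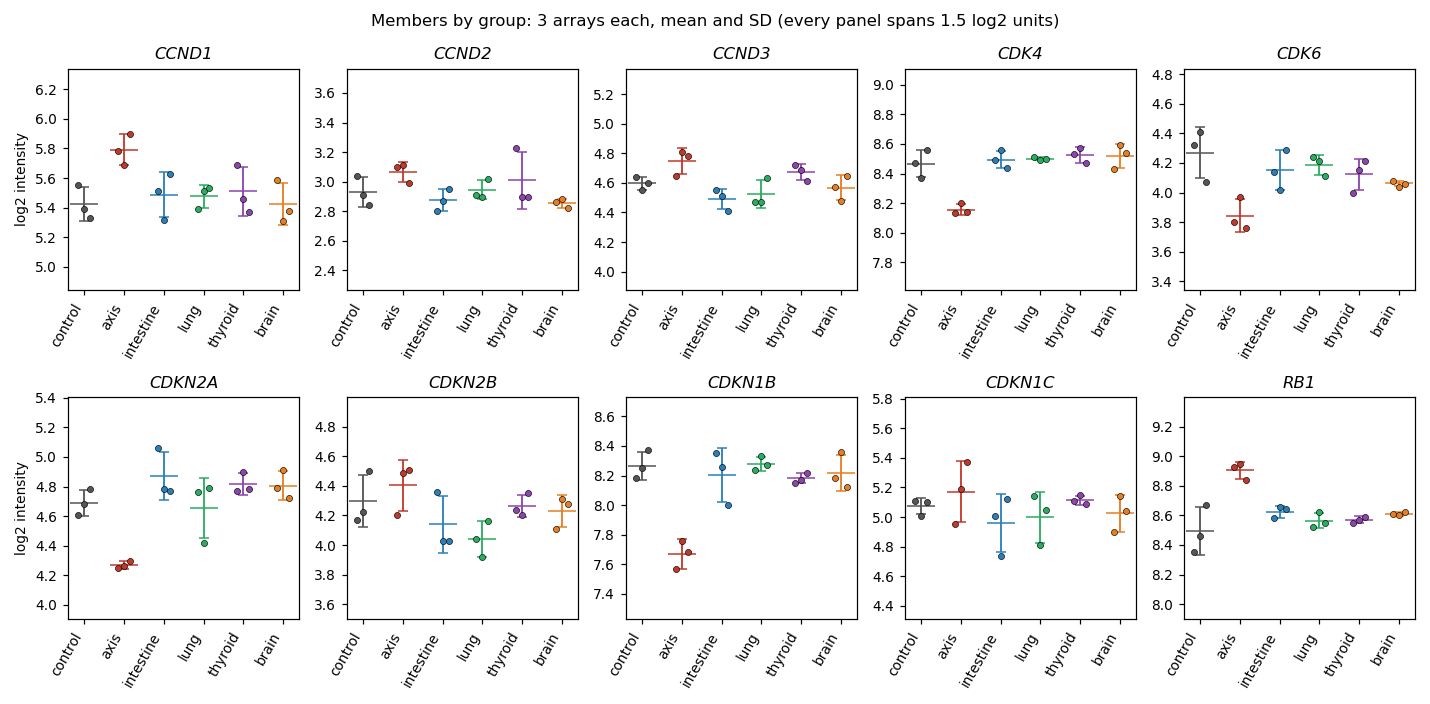
Log2 intensity (vertical axis) of the 10 members in the 6 groups (horizontal axis), with 1 point per array and bars for the mean and SD of 3 arrays. The axis arrays lie below all 15 other arrays for CDK4, CDK6, CDKN2A and CDKN1B and above them for RB1; every panel spans 1.5 log2 units.

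CDKN1B encodes p27, which holds cyclin E and CDK2 inactive in resting cells, and it had the largest change among the members. Its control arrays read 8.18, 8.25 and 8.37 and its axis arrays 7.57, 7.76 and 7.68. The highest axis array lay below the lowest of all other arrays, the peripheral arrays running from 8.001 to 8.36. From a mean of 8.26 ± 0.10 (SD, n = 3) in controls to 7.67 ± 0.10 in the axis, it fell by 0.59 on the log2 scale (standard error 0.092, 95% confidence interval -0.79 to -0.40, adjusted p = 7.52e-05), a fold change of 1.51. Because this fold lies next to the threshold, the call is lost without control replicate 3 or without axis replicate 1, each leaving a log2 fold change of -0.54, while the adjusted p stayed under 0.05 in both cases. It is also lost with cyclic loess (-0.57), with array weights (-0.55) and with limma's treat, which tests against a fold of 1.5 (adjusted p = 1).

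CDK4 and CDK6 encode the kinases that the D-type cyclins activate. CDK4 read 8.47, 8.37 and 8.56 in controls and 8.13, 8.20 and 8.14 in the axis. All 3 axis arrays lay below every other array, and the 12 peripheral arrays kept within 8.43 to 8.59. The log2 fold change of CDK4 was -0.31 (standard error 0.070, interval -0.46 to -0.16, fold 1.24, adjusted p = 0.00278). CDK6 read 4.32, 4.41 and 4.07 in controls and 3.80, 3.97 and 3.76 in the axis. Here too the axis arrays were the lowest of all 18, but the gap was small, since the lowest peripheral array read 4.004. Its log2 fold change was -0.42 (standard error 0.094, interval -0.62 to -0.23, fold 1.34, adjusted p = 0.00251).

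The promoters of CDKN1B, whose change was the largest, and of CDK4 are shown as examples without and with matches to a short sequence. Both are the 250 bases before a RefSeq transcription start in GRCh38.p14, read 5′ to 3′ on the gene's strand, CDKN1B at chr12:12717118-12717367 (plus strand) and CDK4 at chr12:57752311-57752560 (minus strand). Capitals mark each CACGTG, the E-box that MYC and USF proteins are known to bind, searched on both strands.
CDKN1B: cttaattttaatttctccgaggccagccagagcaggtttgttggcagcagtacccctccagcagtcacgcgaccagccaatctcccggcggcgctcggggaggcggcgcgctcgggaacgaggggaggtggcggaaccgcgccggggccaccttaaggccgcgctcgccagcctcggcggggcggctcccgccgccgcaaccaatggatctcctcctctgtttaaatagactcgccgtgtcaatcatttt
CDK4: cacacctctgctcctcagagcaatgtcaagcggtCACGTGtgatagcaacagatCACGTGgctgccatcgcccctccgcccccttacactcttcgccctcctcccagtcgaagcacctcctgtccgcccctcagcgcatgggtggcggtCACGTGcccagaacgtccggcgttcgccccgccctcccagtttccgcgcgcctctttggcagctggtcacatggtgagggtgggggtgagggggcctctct
CDK4 holds 3 matches and CDKN1B none. An E-box occurs in 6.34% of the 35116 windows of the same length. The RefSeq table held 11 windows for 7 of the 10 members, and CDK4's was the only one with an E-box. For CCND3 and RB1 every window lay inside the annotated gene, so the promoter before the outermost start of these genes was not searched, which leaves 7 windows of 5 members outside that limit. An E2F motif (TTTCCCGC, TTTCGCGC, TTTGCCGC or TTTGGCGC on either strand) was in 0 of these 11 windows, where 2.79% of all windows hold one. CCND1, CCND2 and CDKN1C were not among the windows used.

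CDKN2A encodes p16 and, in another reading frame with its own first exon, the p53 regulator ARF. The probe set carries the gene's symbol only, so the transcripts cannot be told apart. Controls read 4.61, 4.68 and 4.78 and axis arrays 4.25, 4.26 and 4.30. The axis arrays were tightly grouped and lay below all others, of which the nearest was a lung array at 4.42. The log2 fold change was -0.42 (standard error 0.0998, interval -0.63 to -0.21, fold 1.34, adjusted p = 0.00448). CDKN2B, its neighbour on the chromosome, read 4.17, 4.22 and 4.50 in controls and 4.20, 4.49 and 4.51 in the axis. These groups overlap almost fully, and its log2 fold change was 0.11 (interval -0.13 to 0.34, adjusted p = 0.646). Of the genes flanking the pair, MTAP had a log2 fold change of -0.20 (adjusted p = 0.345) and DMRTA1 one of 0.094 (adjusted p = 0.712).

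RB1 encodes the pocket protein on which the cyclin D kinases act, and it rose. Controls read 8.35, 8.46 and 8.67 and axis arrays 8.93, 8.95 and 8.84. The axis arrays lay above all 15 others, and the controls were the more scattered group, with an SD of 0.16 against 0.06. The log2 fold change was 0.41 (standard error 0.076, interval 0.25 to 0.57, fold 1.33, adjusted p = 0.00051).

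CCND1, the D-type cyclin that growth factor signalling is best known to induce, was the only one of the 3 that rose against controls. It read 5.55, 5.39 and 5.33 in controls and 5.78, 5.69 and 5.90 in the axis. The groups did not overlap, although thyroid replicate 1, at 5.69, reached the axis range. The log2 fold change was 0.37 (standard error 0.10, interval 0.15 to 0.59, fold 1.29, adjusted p = 0.0148). It missed the threshold without control replicate 2 (adjusted p = 0.0523), control replicate 3 (0.0707) or axis replicate 3 (0.0776). CCND3 read 4.64, 4.55 and 4.60 in controls and 4.65, 4.81 and 4.78 in the axis. Its axis arrays lay just above the controls, and its log2 fold change of 0.15 (interval -0.0083 to 0.31) had an adjusted p of 0.203. CCND2 read 3.04, 2.91 and 2.84 in controls and 3.10, 3.11 and 2.99 in the axis, which overlap. The differences between the 3 cyclins were not tested. The CCND2 log2 fold change was 0.14 (interval -0.048 to 0.32, adjusted p = 0.356), and all its arrays lay between 2.80 and 3.23, around the lower quartile of all genes of 3.10.

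CDKN1C, which encodes p57, read 5.11, 5.01 and 5.10 in controls and 4.95, 5.19 and 5.37 in the axis. The axis arrays spread on both sides of the controls, with an SD of 0.21 against 0.06. The log2 fold change was 0.096 (interval -0.14 to 0.33, adjusted p = 0.688), and it became -0.001 without axis replicate 3.

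Counted by array, 3 members (CCND1, CCND3 and RB1) had all axis arrays above all controls, where 18.1% of genes did, and 4 members (CDK4, CDK6, CDKN2A and CDKN1B) had all axis arrays below, where 15.7% did. Against all 15 other arrays, 1 member lay wholly above (11.7% of genes) and the same 4 lay wholly below (7.51%).

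At the peripheral locations no member passed the test. Against control, 0 of 10 members had an adjusted p under 0.05 by limma at the intestine, lung, thyroid or brain, and the same was true of 0 of the 22392 genes (0%) in each comparison. At an unadjusted p under 0.05 there were 0 members for the intestine, 1 for the lung (CDKN2B, log2 fold change -0.25), 0 for the thyroid and 1 for the brain (CDK6, -0.21), beside 3.23%, 3.63%, 4.02% and 3.58% of all genes. The 4 comparisons share the 3 control arrays. The members ran from -0.16 for CDKN2B to 0.18 for CDKN2A at the intestine, and from -0.25 for CDKN2B to 0.069 for RB1 at the lung. They ran from -0.15 for CDK6 to 0.13 for CDKN2A at the thyroid, and from -0.21 for CDK6 to 0.12 for CDKN2A at the brain. Each 95% interval is for 1 member at 1 location and is not adjusted for the number of members or locations. The largest fold change that any member's 95% interval allowed was 1.31 at the intestine, 1.41 at the lung, 1.27 at the thyroid and 1.32 at the brain. A moderated F test over the 5 groups other than the axis found 0 members and 0 genes (0%) at an adjusted p under 0.05. At an unadjusted p under 0.05 it found 0 members and 679 of the 22392 genes.

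**Figure D2:**
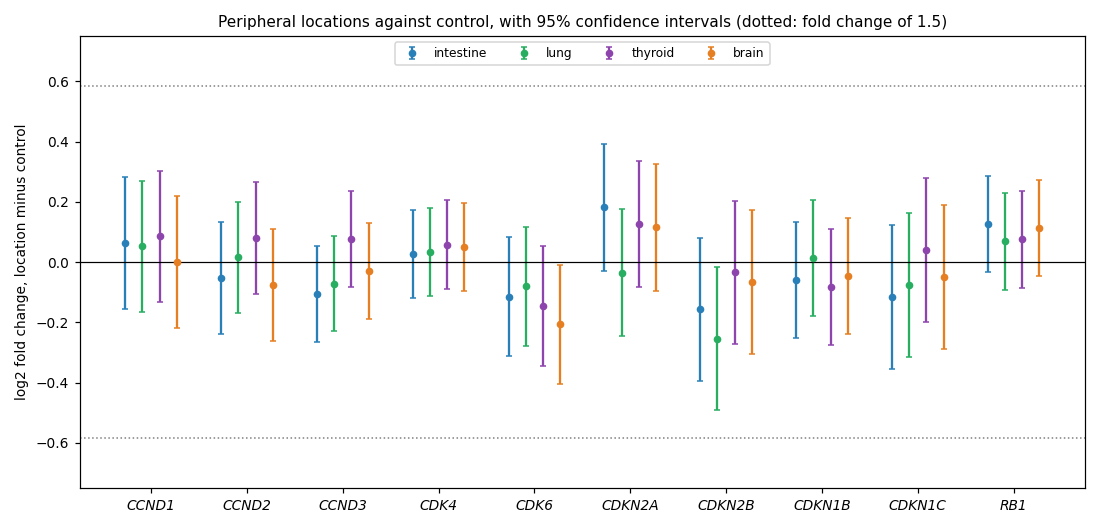
Log2 fold change (vertical axis) of each member at the 4 peripheral locations minus control, with 95% confidence intervals from limma (3 arrays per group, shared controls). No interval reaches the dotted lines at a fold change of 1.5, and the intervals of CDKN2B at the lung and CDK6 at the brain exclude 0 before adjustment.

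In the order of the group means, the axis was lowest for CDK4, CDK6, CDKN2A and CDKN1B and highest for the other 6 members. Among the 5 other groups, neighbours in the order overlapped for every member except RB1, for which brain (8.596 to 8.619) lay just above thyroid (8.55 to 8.59), with means 0.037 apart. For the members that fell, the group next to the axis was the control for CDK4, brain for CDK6, lung for CDKN2A and thyroid for CDKN1B, and in each case its arrays did not overlap with the axis. For RB1 the group next to the axis was the intestine, again without overlap. CDK6 had its highest mean in controls, at 4.27 ± 0.17 (SD, n = 3), and CDKN2A its highest at the intestine, where replicate 1 read 5.06 and the other arrays 4.78 and 4.77.

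The axis was then set against the mean of the 4 peripheral groups, which asks whether the axis effect differs from the mean peripheral effect. By adjusted p alone, 3 members were higher in the axis (15.8% of all genes were) and 4 were lower (10.4% of genes). None passed the fold change as well, where 7.12% of genes did. CDKN1B fell by 0.55 on the log2 scale (adjusted p = 7.74e-06), CDKN2A by 0.52 (4.51e-05), CDK4 by 0.35 (5.63e-05) and CDK6 by 0.29 (0.00632). CCND1 was higher by 0.32 (adjusted p = 0.00614), RB1 by 0.31 (0.000482) and CCND3 by 0.18 (0.0289). CDKN2B had a log2 fold change of 0.23 (adjusted p = 0.0644), CCND2 one of 0.15 (0.154) and CDKN1C one of 0.15 (0.290). Without axis replicate 3, CCND1 (adjusted p = 0.0646), CCND3 (0.129) and CDK6 (0.0591) missed the threshold, and 4 members passed. CCND3 also missed it without axis replicate 2 (0.175).

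**Figure D3:**
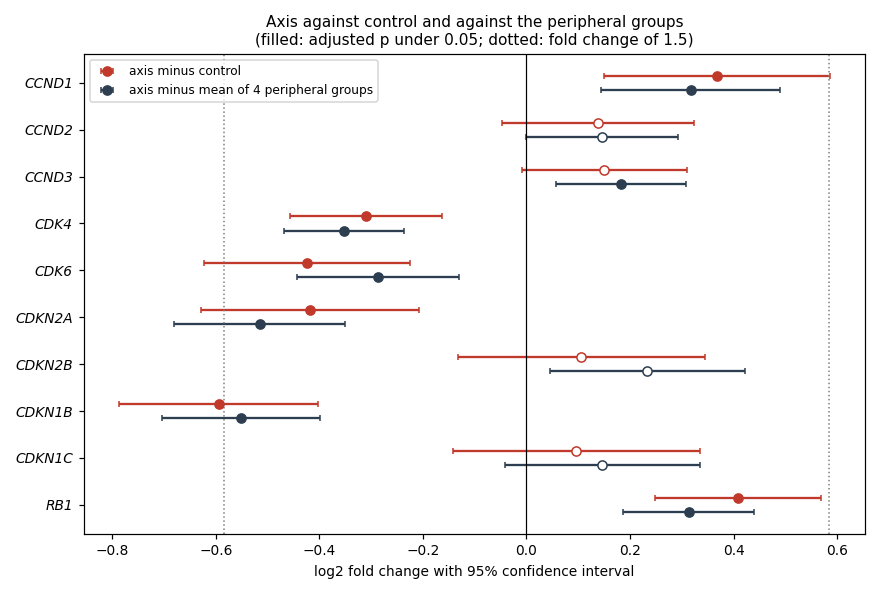
Log2 fold change (horizontal axis) of each member in the axis minus control (red) and minus the mean of the 4 peripheral groups (dark), with 95% confidence intervals from limma. Filled points have an adjusted p under 0.05; CDKN1B, at -0.59 against control, is the only one past the dotted line at a fold change of 1.5.

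Against single locations, CDK4, CDKN2A, CDKN1B and RB1 passed the adjusted p in all 4 comparisons. The adjusted p of CDKN1B lay between 5.92e-05 (lung) and 0.000327 (thyroid), that of CDK4 between 0.000594 and 0.00130, that of CDKN2A between 0.000165 and 0.00849 and that of RB1 between 0.00256 and 0.0108. Of the 10 members, 7 passed against the intestine (21% of all genes), 8 against the lung (20.7%), 5 against the thyroid (20.7%) and 5 against the brain (20.9%). CDK6 did not pass against the brain (log2 fold change -0.22, adjusted p = 0.125), nor CCND1 against the thyroid (0.28, 0.0643). CCND3 passed against the intestine and the lung. The lung comparison also held CDKN2B, higher in the axis by 0.36 (adjusted p = 0.0285). The fold change passed 1.5 for CDKN2A against the intestine (log2 fold change -0.60) and for CDKN1B against the lung (-0.61). These comparisons share the axis arrays.

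The 4 members that fell were positively correlated over the 18 arrays, while over the 15 arrays without the axis the pairs with CDK6 turned negative. Among CDK4, CDKN2A and CDKN1B, Pearson's r was 0.78 to 0.89 over 18 arrays and 0.12 to 0.31 over 15. For CDK6 it went from 0.51 to -0.73 with CDK4, from 0.46 to -0.38 with CDKN2A and from 0.63 to -0.22 with CDKN1B. These values are descriptions, since the arrays of a group share their condition. The positive r over 18 arrays follows in part from the choice of members that all fell in the axis. The genes whose pattern was most like that of CDKN1B over the 18 arrays were DOCK1, LMO4 and SRXN1, each with r = 0.96. Those most opposite were NFATC2 (-0.95), ATP8A2 (-0.94) and ARHGAP27P2 (-0.94). Without the axis arrays these r values were 0.79, 0.81 and 0.71 for the first 3 and -0.69, -0.69 and -0.60 for the others. These genes were picked by an r that includes the same 15 arrays, so the later values are not independent of that choice.

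Among the other genes of the pathway, 9 of the 35 measured had a larger axis change than any member, and 9 were called higher and 1 lower, where 4.39% and 2.6% of all genes were. CDKN1A, the p21 inhibitor that p53 induces after DNA damage, went from 6.28 ± 0.05 (SD, n = 3) in controls to 7.95 ± 0.06 in the axis. No control or peripheral array was above 6.43 and no axis array below 7.88. The log2 fold change was 1.67 (standard error 0.084, fold 3.18, adjusted p = 4.56e-11). In the same cells the other CIP/KIP genes went the opposite way (CDKN1B) or missed the threshold (CDKN1C). Of the 5 further inhibitors and pocket protein genes measured, 2 were called higher and 0 lower. The other one called was RBL1, the p107 relative of RB1, from 8.22 to 8.83 (log2 fold change 0.61, fold 1.53, adjusted p = 0.000445). RBL2, the p130 relative, had a log2 fold change of -0.14 (adjusted p = 0.379).

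Of the 10 genes of the E2F and DP transcription factors, 5 were called higher and 0 lower, where 4.39% and 2.6% of all genes were. Their median log2 fold change was 0.41, against 0.007 for all genes. E2F7 and E2F8, the atypical repressors of the family, changed most. E2F7 lay between 7.28 and 7.35 in the control arrays and between 9.11 and 9.21 in the axis arrays (log2 fold change 1.85, fold 3.60, adjusted p = 2.42e-11), and E2F8 rose by 1.42 (fold 2.68, adjusted p = 1.22e-09). The activators E2F1 (log2 fold change 0.81), E2F2 (0.79) and E2F3 (0.75) were called higher as well. E2F4 (log2 fold change 0.070, adjusted p = 0.731), E2F5 (-0.059, 0.756) and E2F6 (-0.18, 0.399) were not. Of the 9 other G1 cyclin and kinase genes measured, 2 were called higher, where 4.39% of all genes were. These were CDC25A, the phosphatase that activates CDK2 (0.69, fold 1.61, adjusted p = 1.58e-05), and CCNE2, an E-type cyclin (0.59, fold 1.501, adjusted p = 8.32e-05). The fold of CCNE2 lies on the threshold, and it fell short of it without control replicate 1 (0.52) or axis replicate 3 (0.53) and after median centring or quantile normalization. CCNE1 (-0.031, adjusted p = 0.895) and its kinase CDK2 (0.018, 0.934) were not called, and CCNH, the cyclin of the CDK-activating kinase, fell by 0.26 (adjusted p = 0.0387).

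Of the genes just named, RBL1 and E2F1 each hold 2 E2F motifs in the same kind of promoter window, and they are shown beside the members for that reason. The windows are chr20:37095998-37096247 for RBL1 and chr20:33686386-33686635 for E2F1, both GRCh38.p14 and minus strand, with the motifs in capitals on either strand.
RBL1: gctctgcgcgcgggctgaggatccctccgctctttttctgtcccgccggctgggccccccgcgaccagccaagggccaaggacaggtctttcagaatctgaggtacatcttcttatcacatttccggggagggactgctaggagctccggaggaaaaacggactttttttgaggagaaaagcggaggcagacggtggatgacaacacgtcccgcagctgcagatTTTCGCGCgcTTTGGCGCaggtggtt
E2F1: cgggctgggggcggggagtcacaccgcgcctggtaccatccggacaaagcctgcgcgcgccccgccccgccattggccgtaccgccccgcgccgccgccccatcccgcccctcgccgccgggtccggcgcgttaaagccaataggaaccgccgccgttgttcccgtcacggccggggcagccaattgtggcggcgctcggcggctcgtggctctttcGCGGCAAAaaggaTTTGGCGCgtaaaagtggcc
Over these 26 other G1 and E2F genes, 22 had a window, and 7 of them held an E2F motif in at least 1 window (CDC25A, CDC37, RBL1, E2F1, E2F2, E2F3 and TFDP1). Counted by window, 7 of 30 held the motif, where 2.79% of all windows do. Of the genes with a motif, CDC25A, RBL1, E2F1, E2F2 and E2F3 were called higher, where 4.39% of all genes were. CDC37 (log2 fold change 0.13, adjusted p = 0.496) and TFDP1 (-0.13, 0.326) were not called, and E2F7 and CDKN1A were called with no motif in their windows. Whether genes with a motif were called more often than those without was not tested. The window of CDKN1A lay inside the annotated gene, and CCNE2 and E2F8, also called, had no window. A match is a description of the letters in the window and not of a factor's binding.

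**Figure D4:**
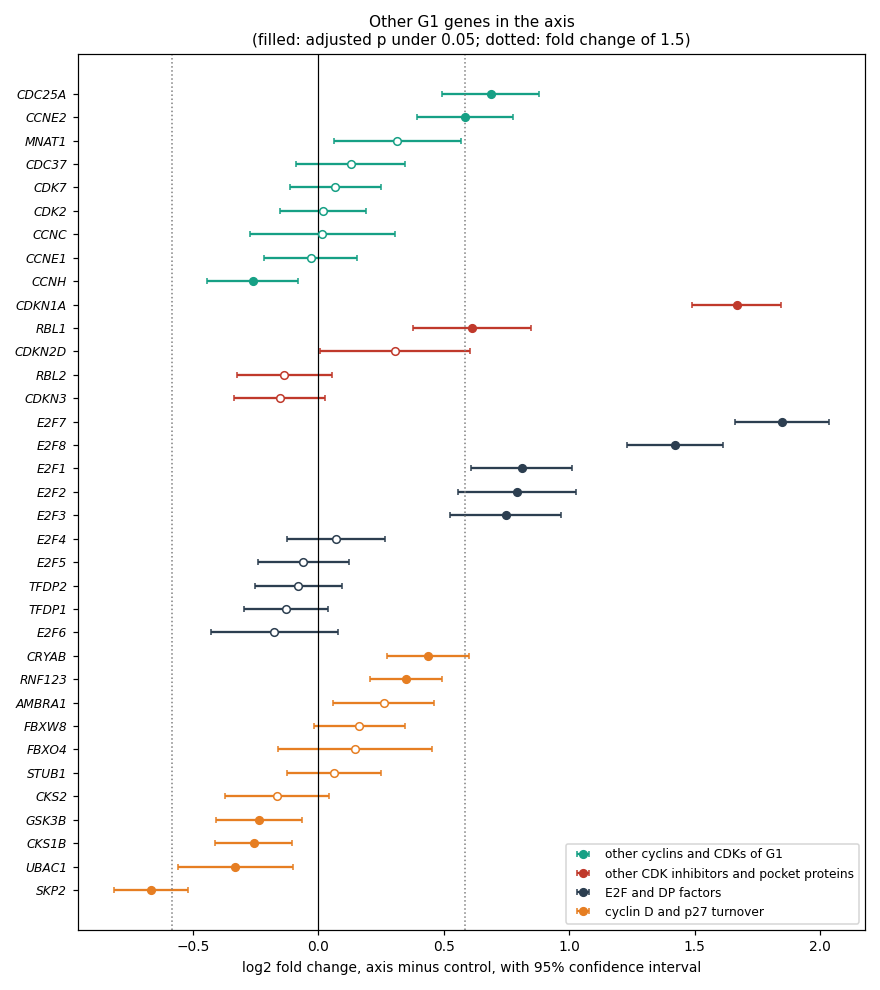
Log2 fold change (horizontal axis) in the axis minus control of the 35 measured genes of 4 other lists of the pathway, with 95% confidence intervals from limma. Filled points have an adjusted p under 0.05; E2F7 (1.85), CDKN1A (1.67) and E2F8 (1.42) lie farthest to the right and SKP2 (-0.67) farthest to the left of the dotted lines at a fold change of 1.5.

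The turnover of p27 and of D-type cyclins runs through ubiquitin ligases. Of the 11 such genes measured, 0 were called higher and 1 lower, where 4.39% and 2.6% of all genes were. By adjusted p alone 2 were higher and 4 lower, where 11.2% and 9.18% of all genes were. The called gene was SKP2, the subunit that targets p27 for degradation, from 9.53 to 8.86 (log2 fold change -0.67, fold 1.59, adjusted p = 9.33e-07). CKS1B, its cofactor for p27, fell by 0.26 (adjusted p = 0.0144). CRYAB, an adaptor in the cyclin D1 ligase (log2 fold change 0.44), and RNF123, a ligase subunit for p27 (0.35), rose. CRYAB was dim, at 2.84 to 3.06 in controls and 3.36 to 3.44 in the axis, around the lower quartile of all genes of 3.10. GSK3B, a kinase that marks cyclin D1 for degradation (-0.24), and UBAC1, the partner of RNF123 (-0.33), fell. CDKN1B and SKP2 were thus both lower in the axis as RNA, and protein was not measured on these arrays. No gene of any of these lists had an adjusted p under 0.05 at a peripheral location.

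Of the 8 markers of dividing cells, 1 rose and 2 fell in the axis, where 11.2% and 9.18% of all genes did. Their mean was 9.19 to 9.26 over the control arrays and 9.16 to 9.17 over the axis arrays, with MKI67 at a log2 fold change of 0.070 (adjusted p = 0.591). The same mean was 9.12 to 9.23 at the intestine, 9.17 to 9.18 at the lung, 9.13 to 9.15 at the thyroid and 9.17 to 9.20 at the brain. By this mean the axis was thus not set apart from the peripheral groups. CCNB1, the mitotic cyclin, was called lower (-0.60, fold 1.51), with the fold under 1.5 without control replicate 3 (-0.52) or axis replicate 3 (-0.57), with cyclic loess (-0.56) and with array weights (-0.56). CCNA2 fell by 0.39 and PCNA rose by 0.32. Some markers of cell types moved with the axis too. The mean of the 7 fibroblast and smooth muscle genes was 4.89 to 5.01 over control and 4.24 to 4.32 over axis arrays, with a median log2 fold change of -0.11. COL1A1 (-1.82) and PDGFRB (-2.08) were called lower and ACTA2 (-0.48) was lower by adjusted p alone, while COL1A2 (-0.064), DCN (-0.0089), LUM (-0.11) and DES (-0.099) did not pass. Of the basal keratins KRT5 (-0.73) and KRT15 (-0.75) were called lower and KRT14 (-0.0097) was not, and of the 4 general epithelial genes KRT19 (-1.10) was called lower, KRT7 (-0.48) was lower by adjusted p alone and EPCAM (0.12) and CDH1 (-0.21) did not pass. Of the 3 luminal genes measured, KRT18 (-0.42) was lower by adjusted p alone, and KRT8 (-0.42) and KLK3 (-0.19) did not pass. In bulk RNA, fewer cells of a type and less RNA per cell cannot be told apart, and the part of these markers in the members' changes was not tested.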

How the data were processed

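RNA from PNT1A cells was measured on 18 arrays in 6 groups of 3. Background correction, normalisation and summary of probes were done by the authors with RMA in affy (both also in the submitters' processing notes, with no version), and the deposited values are log2 intensities per probe set, used without change. The labelling kit named in the methods differs from that in the labels, and no strip or scan date is given, so no array batch could be tested. Groups and replicate numbers came from the sample labels, which speak of biological replicates.

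Of 53617 probe sets, 23866 have 1 gene symbol, 1852 several and 27899 are not listed. The 22392 genes with 1 symbol were tested, with the highest-mean row for the 630 genes with several rows. Comparisons were made in limma 3.58.1 under R 4.3.3 (functions lmFit and eBayes, 1 mean per group over 18 arrays, 12 residual degrees of freedom, median standard error 0.10 in the axis comparison). Adjusted p-values are Benjamini-Hochberg over all genes, and the thresholds for a call, an adjusted p of 0.05 and a 1.5-fold change, are those of the study's methods. No filter on dim genes was used. Precision is limited by the number of arrays.

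The members, the lists of pathway and marker genes and the tests were chosen with earlier results of these data known. Named were all members, genes of the other lists called in the axis, CDKN1A, CCNE1, CCNE2, CDK2, RBL1, RBL2 and the E2F genes, and the 3 genes most and least like CDKN1B. Further genes were named after their values were seen: list genes past the adjusted p alone or used as markers, and motif holders. Expression of CDK3, CDKN2C, FBXO31, CDKN2B-AS1, TP63 and COL3A1 was not analysed here. Motifs were searched in the 250 bases before RefSeq starts (GRCh38.p14). Alternatives changed the row per gene, the filter on dim genes, the normalization, the variance model or weights of arrays, the thresholds, the arrays fitted (with each left out in turn) or added the replicate number as a block. Scripts were tested on simulated data.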

Additional observations from a re-analysis of the deposited data

Results flagged for a closer look

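For 7 members the axis effect differed from the mean effect of the 4 peripheral locations, by the limma contrast of the axis with the mean of the peripheral groups, 3 of them higher in the axis (15.8% of all genes were) and 4 lower (10.4%). The log2 differences, axis minus peripheral, were -0.55 for CDKN1B, -0.52 for CDKN2A, -0.35 for CDK4, -0.29 for CDK6, 0.32 for CCND1, 0.31 for RB1 and 0.18 for CCND3. All 3 axis arrays lay below all 15 other arrays for CDKN1B, CDKN2A, CDK4 and CDK6 (7.51% of all genes did), and above them for RB1 (11.7%). The axis and the peripheral groups overlapped for CCND1, at thyroid replicate 1, and for CCND3.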

How the results depend on the processing

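The members were refitted under 32 other settings, of which 18 left out 1 array. Of 890 refitted values of 28 member results, 856 kept their direction and their side of the adjusted p, 26 lost it, 7 gained it and 1 reversed. Part of this agreement was built in. Each member has 1 row, so the settings on rows per gene left its log2 fold change unchanged. Dropping the fold threshold repeated the main fit. The 28 results also include the lowest and highest member change at each of the 4 peripheral locations. Their sign can hardly change, and the gene behind them may differ between settings. The reversed value was CDKN1C in the axis, with a log2 fold change of -0.001 without axis replicate 3 and of up to 0.20 without another array. The number of members called in the axis against control was 1, and became 0 with cyclic loess, with array weights and with limma's treat against a fold of 1.5, and 6 with no fold threshold. It was 0 to 1 when an array was left out. Against the peripheral groups the number was 0, and became 1 with median centring, 1 with quantile normalization (CDKN1B in both) and 7 with no fold threshold. It was 0 to 1 when an array was left out, with CDKN1B called at -0.60 without axis replicate 2. The number past the adjusted p alone was 7 there and ran from 4 to 8 when an array was left out. With quantile normalization, CCND1 against control had an adjusted p of 0.0536. CDKN2B against the peripheral groups passed under 6 settings, with array weights at an adjusted p of 0.0192. The counts of members at the 4 peripheral locations were 0 under every setting run. CDKN1B against control ran from -0.64 to -0.54. Of the other pathway and proliferation genes called in the axis, CDKN1A, E2F7 and E2F8 were also called with treat, and CCNE2, CDC25A, RBL1, E2F1, E2F2, E2F3, SKP2 and CCNB1 were not. The cause of these shifts was not tested. Filters on dim genes left no value for CCND2 and, at the median, for CDK6. Same-numbered arrays showed no shared deviation (correlations of residuals from -0.357 to 0.225, above 0.1 in 8 of 45 pairs). With 3 arrays a group this cannot decide whether the numbers pair the samples. With the replicate number as a block 1 member was called in the axis and 0 elsewhere. With 3 arrays a group and a median standard error of 0.10, small changes may have gone undetected.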
